A study of Rattus norvegicus with 9 samples.

Results

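The genes described here are 9 genes of the proteoglycan and hyaluronan matrix, read across cultured rat cardiac fibroblasts of 3 ages: Bgn, Dcn, Lum, Fmod, Prelp, Vcan, Has1, Has2 and Cd44. They were taken by symbol from a count table of 17337 genes, and all 9 were among the 11337 genes with enough counts to be tested. RNA-seq libraries came from Sprague Dawley rats at embryonic day 18 (fetal), postnatal day 1 (neonatal) and 7 weeks (adult), with 3 libraries at each age. All cells were at passage 0 and were grown to confluency in flasks with serum and ascorbic acid, and no transgene, deletion or drug was named for any group. The labels name no sort and do not say whether the libraries of an age came from separate animals or cultures, so p-values measure only the spread between these libraries, which may be technical.

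Proteoglycans are secreted or membrane proteins that carry sulfated sugar chains. The small leucine-rich proteoglycans bind collagen fibrils and affect their spacing and width, whereas versican is a large chondroitin sulfate proteoglycan that binds hyaluronan. Hyaluronan is a long sugar polymer made at the plasma membrane by hyaluronan synthases and bound by the receptor CD44. In the heart, versican and hyaluronan are known for their part in the loose matrix of the forming valves and chambers, and the small leucine-rich proteoglycans for their place in the collagen network of the older heart and its scars.

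In adult cultures the decorin, Prelp, Has1 and Cd44 transcripts were higher than at both younger ages, and the lumican, versican and Has2 transcripts were lower. Biglycan was already high in neonatal cultures, at 2.31 times its fetal level, and fibromodulin varied too much between libraries to be placed. Tested with edgeR's quasi-likelihood method with Benjamini-Hochberg adjustment over all 11337 genes, 5 members were higher and 3 lower in adult than in neonatal cultures. In that comparison 31.6% of all tested genes were called higher and 31.8% lower, 63.5% in either direction. Between adult and fetal cultures, 5 members were higher and 3 lower, against 34.9% and 35.5% of all tested genes, 70.5% in either direction. Between neonatal and fetal cultures, 2 members were higher, Bgn and Prelp, and 1 was lower, Has2, against 18.3% and 18% of all tested genes, 36.3% in either direction.

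A member called in the same direction in adult cultures against both younger ages was found 7 times among the 9, and 53.3% of all tested genes met that rule. A difference among the 3 ages in any direction was called for 8 of the 9 members, all but Fmod, against 77.6% of all tested genes. The median log2 fold change of the members was 1.68 between adult and neonatal, 1.20 between adult and fetal and 0.21 between neonatal and fetal cultures, where the medians of all genes lay between -0.01 and 0.00. With so many genes called between ages, these counts show nothing particular to the members. The 3 comparisons share libraries, so they are not independent of each other.

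**Figure D1:**
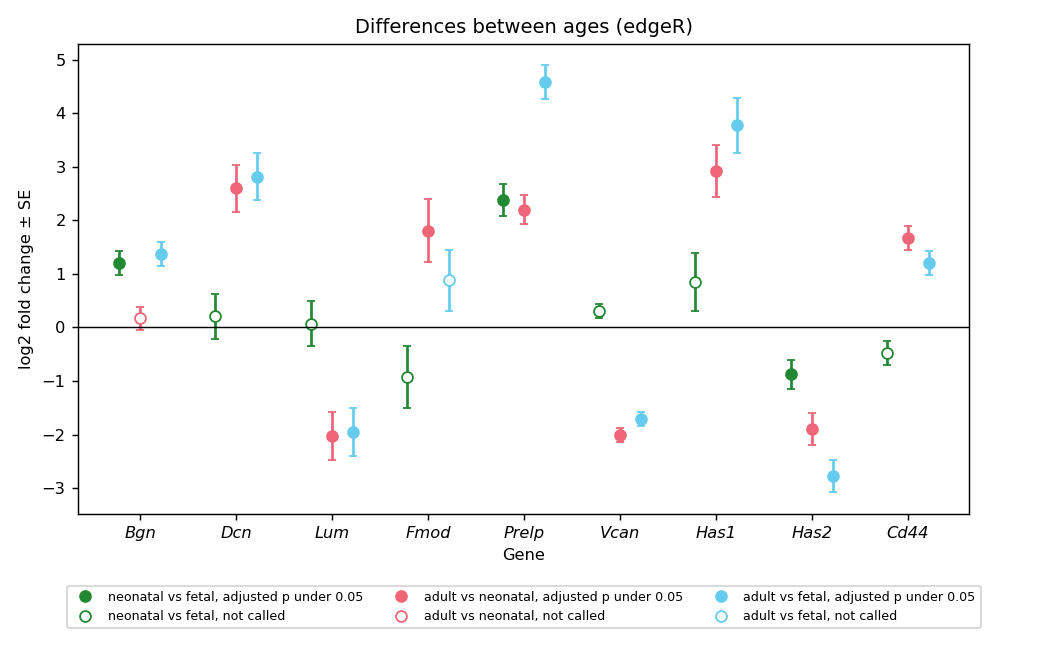
Log2 fold change of each of the 9 genes between ages, from edgeR on all 9 libraries; bars are 1 standard error, each colour is 1 pair of ages and filled points passed an adjusted p of 0.05. Dcn, Prelp, Has1 and Cd44 lie above 0 and Lum, Vcan and Has2 below 0 in both comparisons with adult cultures, whereas Bgn was called against fetal cultures and its adult to neonatal difference of 0.17 was not.

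Total counts assigned to genes ran from 13392825 to 22850491 per library. Fetal library 3 stood apart from the other fetal libraries and adult library 1, less so, from the other adult ones. Each of the 10 fibroblast markers looked for had counts in every library, although Col1a2 was only at 0.0531 to 0.976 CPM. Col1a1 was at 11890 to 40025 CPM, and whether the low Col1a2 value came from the annotation or counting was not tested. CPM stands for counts per 1000000 assigned counts with TMM-scaled library sizes. The list had a summed level of 36623 to 78491 CPM in fetal, 94980 to 102224 in neonatal and 40794 to 51978 in adult cultures, lowest in fetal library 3. Markers of other cells moved with age too. The 12 macrophage markers summed to 14.7 to 69.3 CPM in fetal, 159 to 177 in neonatal and 4099 to 5787 in adult cultures, with Cd163 at 0 in every fetal and neonatal library. The 13 cardiomyocyte markers summed to 10247 to 14466, 6504 to 7188 and 306 to 321 CPM, in the same order. Nearly all of the adult sum was Tnnt2, at 303 to 316 CPM in adult libraries. Mural cell markers (8 genes) summed to 1058 to 1920, 2527 to 2615 and 294 to 603 CPM, and endothelial markers (10 genes) to 156 to 251, 529 to 564 and 1037 to 1187 CPM. Most of the endothelial sum was 1 gene, Eng, at 133 to 229, 499 to 529 and 933 to 1075 CPM. Among the others, Pecam1, Cdh5, Tie1, Vwf and Egfl7 were higher in every adult than in every neonatal library. Kdr and Tek were lower, and Erg and Emcn overlapped. The part of these other cell types in the differences below was not tested. In bulk RNA, fewer cells of a type and less RNA per cell cannot be told apart.

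Promoters were read as the 250 bases before the annotated start in RefSeq on the GRCr8 build. Only 5 of the 9 members had an entry, and Bgn, Dcn, Prelp and Has2 had none. Of the members with an entry, those called in the same direction in adult cultures against both younger ages are shown. Motifs were searched on both strands: the TATA box as the letters TATAAA, the CCAAT box as the same letters, the GC box as GGGCGG, a site for AP-1 factors as TGANTCA and a site for STAT factors as TTCNNNGAA. Each sequence is on the strand of its gene, 5′ to 3′, and capitals mark a motif match. Lum and Vcan, the first pair, were lower in adult cultures; Has1 and Cd44, the second, were higher.
Lum, chr7:34245456-34245705, plus strand: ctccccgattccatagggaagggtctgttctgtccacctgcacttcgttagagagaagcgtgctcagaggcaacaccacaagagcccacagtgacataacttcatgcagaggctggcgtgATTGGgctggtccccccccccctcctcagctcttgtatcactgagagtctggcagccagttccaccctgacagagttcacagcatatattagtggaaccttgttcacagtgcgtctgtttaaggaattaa
Vcan, chr2:22595956-22596205, minus strand: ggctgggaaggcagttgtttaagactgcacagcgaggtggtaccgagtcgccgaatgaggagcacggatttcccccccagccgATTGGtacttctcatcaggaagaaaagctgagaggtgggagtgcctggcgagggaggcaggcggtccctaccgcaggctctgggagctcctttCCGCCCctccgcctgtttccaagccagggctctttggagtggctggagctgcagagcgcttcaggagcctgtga
Has1, chr1:67378445-67378694, minus strand: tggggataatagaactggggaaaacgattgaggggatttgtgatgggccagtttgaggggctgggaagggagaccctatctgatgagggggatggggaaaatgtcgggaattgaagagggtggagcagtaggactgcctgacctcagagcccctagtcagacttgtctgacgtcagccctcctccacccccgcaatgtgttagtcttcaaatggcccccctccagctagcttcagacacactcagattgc
Cd44, chr3:109699425-109699674, minus strand: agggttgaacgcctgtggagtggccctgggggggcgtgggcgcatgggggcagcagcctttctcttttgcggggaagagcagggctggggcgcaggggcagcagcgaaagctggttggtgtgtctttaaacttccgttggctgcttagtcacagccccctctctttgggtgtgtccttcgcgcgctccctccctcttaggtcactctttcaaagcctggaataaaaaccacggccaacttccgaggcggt
The Lum stretch holds CCAAT, read on its other strand as ATTGG, 130 bases before the start. The Vcan stretch holds the same motif, also as ATTGG, 167 bases before the start, and GGGCGG, read on the other strand as CCGCCC, 74 bases before it. None of these motifs is in the Has1 or Cd44 stretch. Among all 33469 promoter entries of this length, 34.0% hold CCAAT, 30.5% GGGCGG, 12.9% TATAAA, 7.67% TTCNNNGAA and 6.34% TGANTCA. A second, overlapping Vcan entry holds GGGCGG only. Guanine and cytosine make up 52.8% of the Lum stretch, 61.6% of the Vcan stretch, 54.8% of the Has1 stretch and 60.8% of the Cd44 stretch, with a median of 51.2% over all entries.

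Biglycan and decorin are the closely related small leucine-rich proteoglycans with chondroitin or dermatan sulfate chains, and both bind collagen fibrils and TGF-beta. Bgn lies on rn6 chromosome X (157319042-157331204, minus strand). Its level was 6228, 6216 and 3291 CPM in fetal libraries 1 to 3, then 11979.9, 12261 and 12081 CPM in the neonatal libraries and 15022.5, 13121 and 12664 CPM in the adult libraries. Every neonatal and adult library was above every fetal one, fetal library 3 was the lowest of all, and adult libraries lay above the neonatal ones by a small margin. Bgn was 2.31-fold higher in neonatal than in fetal cultures (log2 fold change 1.21, SE 0.22, edgeR adjusted p = 0.00315) and 2.59-fold higher in adult than in fetal cultures (edgeR adjusted p = 0.000369). The adult to neonatal difference was 0.17 on the log2 scale with an SE of 0.22 (edgeR adjusted p = 0.517), and without fetal library 3 in the fit it passed the threshold at nearly the same size (0.16, edgeR adjusted p = 0.043).

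Bgn was also the most abundant member by far. It made up 67.2 to 82.8% of all counts in the 9 members in fetal libraries, 88.1 to 88.3% in neonatal libraries and 90.3 to 91.6% in adult libraries. Of all assigned counts, the 9 members together took 0.704% ± 0.119 (SD, n = 3) at the fetal age, 1.30% ± 0.01 at the neonatal and 1.48% ± 0.12 at the adult age. The differences were 0.599 percentage points between neonatal and fetal, 0.177 between adult and neonatal and 0.775 between adult and fetal cultures. Without adult library 1 the adult to neonatal difference was 0.112 points. Each pair gave an exact two-sided permutation p of 0.1, the smallest that 3 against 3 libraries allow, and 0.1 after adjustment over the 3 pairs. Since most of those counts are Bgn, this share describes mainly that gene.

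Dcn lies on rn6 chromosome 7 (38742250-38782276, plus strand). Its level was 63.5, 67.9 and 19.1 CPM in fetal libraries 1 to 3, 58.6, 58.6 and 57.3 CPM in neonatal libraries, and 471, 359 and 230 CPM in adult libraries. All adult libraries exceeded all others, while the neonatal libraries lay between fetal library 3 and the other two fetal libraries. Dcn was 6.07-fold higher in adult than in neonatal cultures (log2 fold change 2.60, SE 0.44, edgeR adjusted p = 0.000813) and 7.03-fold higher than in fetal cultures (edgeR adjusted p = 0.000418). Between neonatal and fetal cultures the log2 difference was 0.21 with an SE of 0.42 (edgeR adjusted p = 0.720), and it was -0.17 without fetal library 3.

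Lumican, fibromodulin and Prelp belong to another class of small leucine-rich proteoglycans, some of which carry keratan sulfate, and they also bind fibrillar collagen. Lum lies 37.8 kb beyond Dcn on chromosome 7 (38820058-38826862, plus strand), with no other gene of the table between them. Its level was 162, 164 and 46.0 CPM in fetal libraries 1 to 3, 132, 133 and 125 CPM in neonatal libraries, and 20.2, 39.1 and 36.7 CPM in adult libraries. Every adult library was below every younger one, and fetal library 3 came nearest to them. Lum was 4.06-fold lower in adult than in neonatal cultures (log2 fold change -2.02, SE 0.45, edgeR adjusted p = 0.00370) and 3.87-fold lower than in fetal cultures (edgeR adjusted p = 0.00375). Neonatal and fetal cultures differed by 0.07 with an SE of 0.42 (edgeR adjusted p = 0.913), or by -0.32 without fetal library 3.

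Thus Dcn and its neighbour Lum moved in opposite directions between the younger ages and the adult. The next genes along that stretch of chromosome 7 encode Kera and Epyc, further small leucine-rich proteoglycans, 31.2 kb beyond Lum and another 31.8 kb on. Kera had 0 counts in all 9 libraries. Epyc was at 35.6, 34.3 and 3.08 CPM in fetal libraries, 10.2, 10.5 and 10.7 CPM in neonatal libraries and 0.230, 1.08 and 0.899 CPM in adult libraries. It fell by 3.80 on the log2 scale between neonatal and adult cultures (edgeR adjusted p = 0.00743), the direction of Lum and not of Dcn. In fetal library 3, Dcn, Lum and Epyc were each below the other two fetal libraries.

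Prelp lies on rn6 chromosome 13 (50751650-50761278, minus strand). Its protein links collagen to basement membranes through heparan sulfate. Its level was 9.40, 9.04 and 8.45 CPM in fetal libraries, 47.8, 49.7 and 42.5 CPM in neonatal libraries, and 329, 171 and 144 CPM in adult libraries. The ages did not overlap and each was above the one before it, with adult library 1 above the other adult libraries. Prelp was 5.21-fold higher in neonatal than in fetal cultures (log2 fold change 2.38, SE 0.29, edgeR adjusted p = 0.000577) and 4.60-fold higher in adult than in neonatal cultures (log2 fold change 2.20, SE 0.28, edgeR adjusted p = 0.000138). The total rise from fetal to adult cultures was 23.9-fold (edgeR adjusted p = 2.33e-06), the widest span among the 9 members. Optc, which encodes the leucine-rich proteoglycan opticin and lies 5.29 kb from Prelp on the same strand, was at 0.378, 0.309 and 0.159 CPM in fetal, 1.16, 1.35 and 1.04 in neonatal and 10.0, 4.62 and 2.85 in adult libraries. Its level was far below that of Prelp, and it rose by 2.04 and then 2.29 on the log2 scale (edgeR adjusted p = 0.0225 and 0.00184).

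Fmod lies 114 kb from Prelp on chromosome 13 (50874886-50885503, plus strand) and its protein takes part in collagen cross-linking and fibril growth. Its level was 18.7, 21.96 and 37.5 CPM in fetal libraries 1 to 3, 14.5, 13.5 and 13.1 CPM in neonatal libraries, and 98.8, 27.6 and 17.3 CPM in adult libraries. All neonatal libraries were the lowest, and the adult libraries overlapped the fetal ones. Fmod was called 3.49-fold higher in adult than in neonatal cultures (log2 fold change 1.80, SE 0.59, edgeR adjusted p = 0.0249). Adult library 1 set that size: without it the log2 fold change was 0.71 (edgeR adjusted p = 0.0756). The call was also lost without fetal library 3 and without each neonatal library, and over all alternatives tried its adjusted p ran from 0.00579 to 0.0868. Adult and fetal cultures differed by 0.88 with an SE of 0.57 (edgeR adjusted p = 0.194), by -0.21 without adult library 1, and by 1.28 without adult library 3 (edgeR adjusted p = 0.0447). The neonatal to fetal difference was -0.93 (SE 0.58, edgeR adjusted p = 0.241) and was called without adult library 1 (edgeR adjusted p = 0.0309).

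**Figure D2:**
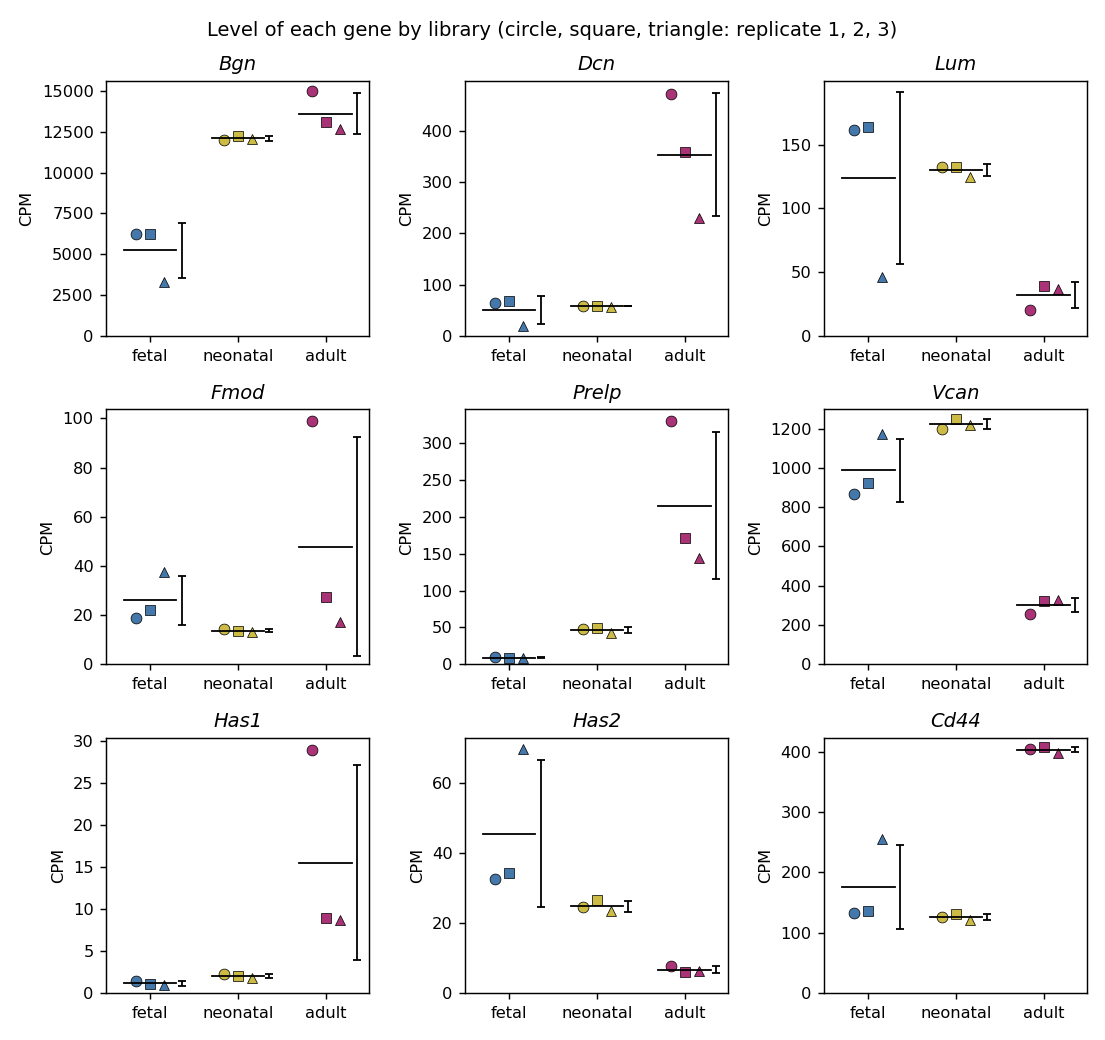
Level of each gene in CPM (linear axis from 0) in the 3 fetal, 3 neonatal and 3 adult libraries; each point is 1 library, its shape gives the replicate number, lines are means and bars beside them 1 SD. Adult points lie above all others for Dcn, Prelp, Has1 and Cd44 and below all others for Lum, Vcan and Has2; fetal library 3 is apart from the other fetal libraries for Bgn, Dcn, Lum, Fmod, Has2 and Cd44, and adult library 1 from the other adult ones for Fmod, Prelp and Has1.

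Versican is the large hyaluronan-binding proteoglycan of loose connective tissue. Vcan lies on rn6 chromosome 2 (18490102-18587340, minus strand), and its splice forms were summed in the table. Its level was 869, 922 and 1171 CPM in fetal libraries, 1196, 1247 and 1219.8 CPM in neonatal libraries, and 259, 321 and 326 CPM in adult libraries. The adult libraries were all far below the others, and the neonatal libraries lay just above the highest fetal one, library 3. Vcan was 4.04-fold lower in adult than in neonatal cultures (log2 fold change -2.02, SE 0.13, edgeR adjusted p = 1.90e-06) and 3.27-fold lower than in fetal cultures (edgeR adjusted p = 2.88e-06). The neonatal to fetal difference of 0.31 missed the threshold (SE 0.13, edgeR adjusted p = 0.0865), and passed it without fetal library 3 (0.45, edgeR adjusted p = 0.00269).

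Hyaluronan synthases add sugars to the growing hyaluronan chain at the inner face of the plasma membrane; Has2 is the form needed for heart development and Has1 is known as inducible by inflammatory signals. Has2 lies on rn6 chromosome 7 (96438046-96464049, minus strand). Its level was 32.7, 34.3 and 69.7 CPM in fetal libraries 1 to 3, 24.5, 26.4 and 23.4 CPM in neonatal libraries, and 7.81, 5.92 and 6.22 CPM in adult libraries. The ages did not overlap and ran downward from fetal to adult, with fetal library 3 the highest. Has2 was 3.73-fold lower in adult than in neonatal cultures (log2 fold change -1.90, SE 0.30, edgeR adjusted p = 0.000514) and 6.85-fold lower than in fetal cultures (edgeR adjusted p = 3.56e-05). The neonatal level was 1.84-fold below the fetal one (edgeR adjusted p = 0.0318), a call that did not hold when neonatal library 1, 2 or 3 was left out (edgeR adjusted p = 0.0934, 0.0784 and 0.103). Its size also depended on the libraries: the log2 fold change of -0.88 ran from -1.07 to -0.43 when a library was left out. Without fetal library 3 the fetal mean was 33.5 CPM, beside 45.6 with it and a neonatal mean of 24.8.

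Has1 lies on rn6 chromosome 1 (59720612-59732409, minus strand) and was the least abundant member at the younger ages. Its level was 1.46, 1.01 and 0.903 CPM in fetal libraries, 2.26, 1.998 and 1.81 CPM in neonatal libraries, and 28.9, 8.88 and 8.69 CPM in adult libraries. These rest on 17 to 27 counts per fetal library, 28 to 43 per neonatal library and 116 to 378 per adult library. The ages did not overlap, and adult library 1 stood above the other adult libraries. Has1 was 7.62-fold higher in adult than in neonatal cultures (log2 fold change 2.93, SE 0.49, edgeR adjusted p = 0.000638) and 13.7-fold higher than in fetal cultures (edgeR adjusted p = 0.000142). Without adult library 1 the log2 fold changes were 2.11 and 2.96 (edgeR adjusted p = 0.000117 and 1.47e-05). The neonatal to fetal difference was 0.85 with an SE of 0.54 (edgeR adjusted p = 0.239), and it was called without adult library 1 (0.85, edgeR adjusted p = 0.0232). Has3, the remaining synthase gene, had 0 to 20 counts per library and was not tested.

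CD44 is the main cell surface receptor for hyaluronan and is carried by fibroblasts and leukocytes. Cd44 lies on rn6 chromosome 3 (92696292-92783658, minus strand), and its many splice forms were summed. Its level was 133, 137 and 256 CPM in fetal libraries 1 to 3, 125, 132 and 122 CPM in neonatal libraries, and 405, 407 and 399 CPM in adult libraries. All adult libraries lay close together above the rest, and fetal library 3 was above the other fetal and the neonatal libraries. Cd44 was 3.20-fold higher in adult than in neonatal cultures (log2 fold change 1.68, SE 0.23, edgeR adjusted p = 0.000200) and 2.30-fold higher than in fetal cultures (edgeR adjusted p = 0.00106). Neonatal and fetal cultures differed by -0.47 (SE 0.22, edgeR adjusted p = 0.124), and by -0.64 to -0.09 when a library was left out. Without fetal library 3 the fetal mean was 135 CPM, beside 175 with it and a neonatal mean of 126. The macrophage markers Cd68 and Csf1r were at 342 to 396 and 377 to 620 CPM in adult libraries, against 6.23 to 7.43 and 27.1 to 29.8 in neonatal ones; how much of Cd44 came from such cells was not tested.

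Libraries of the 2 ages compared did not overlap for 9 of 9 members between adult and neonatal, 8 of 9 between adult and fetal and 7 of 9 between neonatal and fetal cultures. The same was true of 76.1%, 71.8% and 57.4% of all tested genes. Set against the midpoint of fetal and adult levels on the log2 scale, neonatal levels were higher for Bgn, Lum and Vcan and lower for Dcn and Cd44 (edgeR adjusted p from 7.73e-05 to 0.0465), and 23% and 19.4% of all tested genes were called in those directions, 42.4% in either. The Vcan difference of 1.16 and the Cd44 difference of -1.07 held under every alternative that was run, and those of Bgn, Dcn and Lum did not hold when 1 neonatal library, whichever it was, was left out. Leaving out an adult library also ended the call of Bgn (library 2 or 3), Dcn (1 or 2) and Lum (1, 2 or 3), and leaving out fetal library 1 or 2 that of Dcn. Without adult library 1, Prelp, Fmod and Has1 were called too (log2 differences of 0.31, -0.82 and -0.63, edgeR adjusted p = 0.0174, 0.0326 and 0.0376), without adult library 3 Fmod was called (-1.56, edgeR adjusted p = 0.0226), and without fetal library 3 Has2 was (0.74, edgeR adjusted p = 5.82e-05).

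Ratios between members were taken within each library on counts per exon length, so they do not depend on how libraries were scaled to each other. The log2 ratio of Lum to Dcn was 1.25, 1.17 and 1.17 in fetal libraries 1 to 3, 1.08, 1.08 and 1.03 in neonatal libraries, and -4.64, -3.29 and -2.74 in adult libraries. Lum was thus above Dcn at both younger ages and below it in every adult library. Fetal library 3, low in both genes, had the same ratio as the other fetal libraries. The mean ratio fell by 4.62 between neonatal and adult cultures. The log2 ratio of Has2 to Has1 was 3.49, 4.09 and 5.28 in fetal, 2.45, 2.73 and 2.69 in neonatal, and -2.88, -1.58 and -1.48 in adult libraries, so Has1 exceeded Has2 in all adult libraries and in no younger one. Its mean fell by 1.66 between fetal and neonatal and by 4.60 between neonatal and adult cultures.

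The log2 ratio of Vcan to Dcn was 0.88, 0.87 and 3.04 in fetal, 1.46, 1.52 and 1.52 in neonatal, and -3.75, -3.05 and -2.39 in adult libraries. Fetal library 3 was far above the other fetal libraries here, and the fetal and neonatal ranges overlapped. The log2 ratio of Dcn to Bgn was -6.03, -5.93 and -6.84 in fetal, -7.09, -7.12 and -7.13 in neonatal, and -4.41, -4.60 and -5.20 in adult libraries. Neonatal cultures had the least Dcn for their Bgn and adult cultures the most. Of the 12 tests of a ratio between 2 ages, 11 gave an exact two-sided permutation p of 0.1, the smallest possible with 3 against 3 libraries, and 0.109 after adjustment. The exception was Vcan to Dcn between neonatal and fetal cultures, with an exact p of 1.

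**Figure D3:**
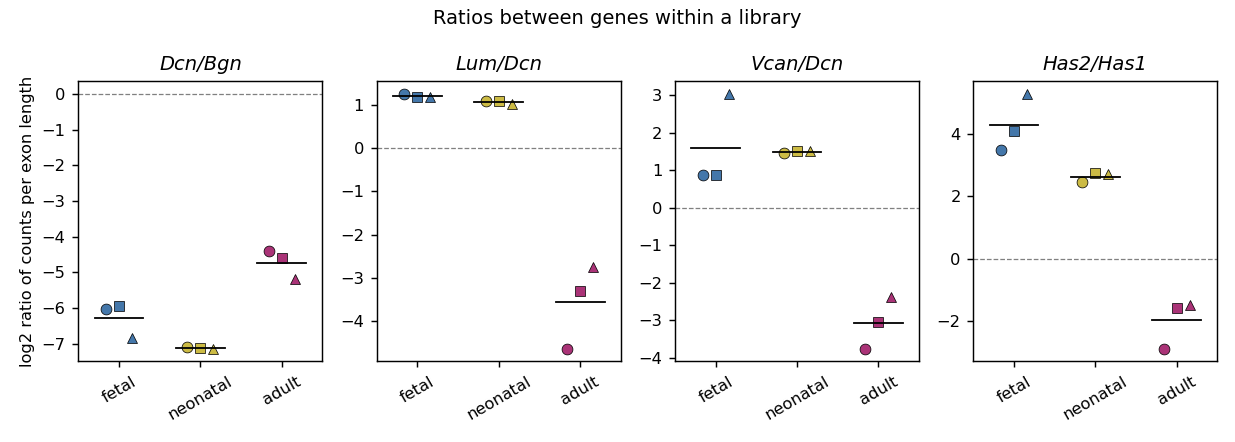
Log2 ratios of counts per exon length between pairs of genes within each of the 9 libraries. Points are libraries (shape: replicate number), solid lines are means and the dashed line marks equal counts per exon length. Lum to Dcn, Vcan to Dcn and Has2 to Has1 are above 0 at the younger ages and below 0 in all 3 adult libraries, while Dcn to Bgn stays below 0 throughout.

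The order of the members was read from CPM per kb of exon, which allows a rough comparison between genes. The lengths cover all annotated exons, which not every splice form of Vcan or Cd44 need contain. In fetal cultures Bgn led with a mean level of 2158 CPM per kb, followed by Vcan at 82.3, Lum at 71.7, Cd44 at 43.9, Dcn at 31.0, Has2 at 10.9, Fmod at 8.86, Prelp at 6.32 and Has1 at 0.537. Only Bgn from Vcan and Prelp from Has1 were apart beyond the spread of the fetal libraries; other neighbours in that order overlapped. In neonatal cultures the order was Bgn at 4982, Vcan at 102, Lum at 75.3, Dcn at 35.996, Prelp at 32.9, Cd44 at 31.6, Has2 at 5.93, Fmod at 4.65 and Has1 at 0.965, with only Prelp and Cd44 overlapping among neighbours. Adult cultures had Bgn at 5598, Dcn at 219, Prelp at 151, Cd44 at 101, Vcan at 25.2, Lum at 18.5, Fmod at 16.3, Has1 at 7.39 and Has2 at 1.59. There, Bgn stood apart from Dcn, Cd44 from Vcan and Has1 from Has2, while the ranges of the other neighbours overlapped. Within each adult library, Dcn nonetheless lay above Prelp, Prelp above Cd44, Vcan above Lum and Fmod above Has1. Lum and Fmod changed order, with Fmod the higher in adult library 1 only. By mean level, Vcan and Lum thus came next after Bgn at the younger ages, and Dcn and Prelp in the adult. Fetal library 3 set part of the fetal order, however. Lum lay above Vcan in fetal library 1 (93.7 against 72.5 CPM per kb) and library 2 (94.8 against 76.9). In library 3 Lum lay below Vcan, at 26.6 against 97.7. Dcn lay above Cd44 in fetal library 1 (39.3 against 33.4) and library 2 (42.0 against 34.2). In library 3 Dcn was at 11.8, and Cd44 at 64.1 lay above both Dcn and Lum.

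**Figure D4:**
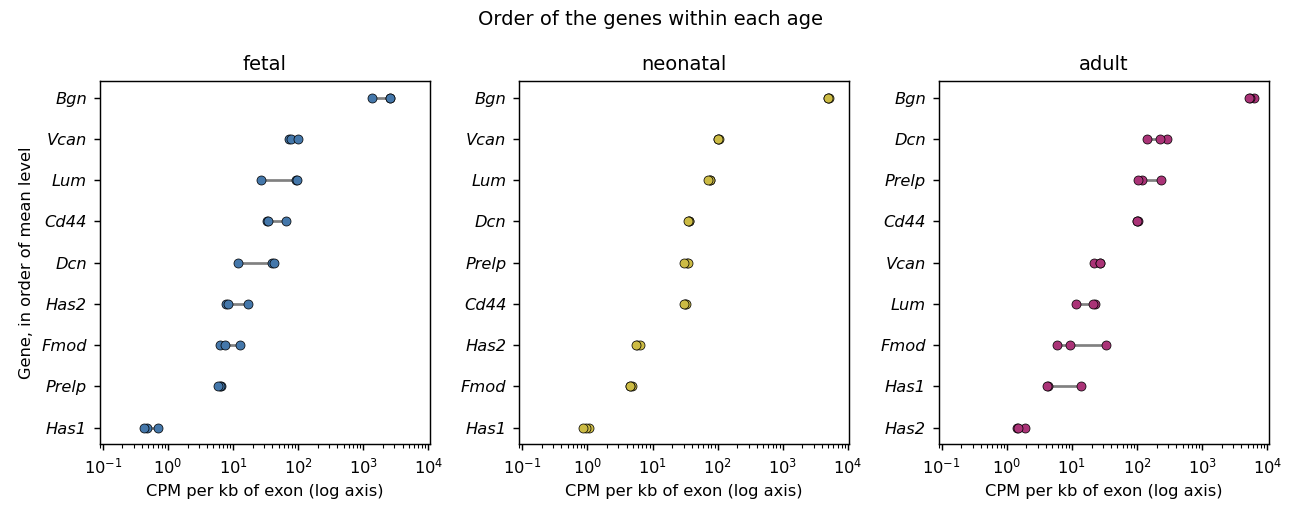
Level of the 9 genes in CPM per kb of exon (log axis) in each library, ordered by mean level within fetal, neonatal and adult cultures; points are libraries and grey lines their range. Bgn is first at every age, Vcan and Lum come next in fetal and neonatal cultures, and Dcn and Prelp in adult cultures.

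The other genes of this matrix were read from lists of 105 symbols, of which 89 were in the table and 71 were tested. Between neonatal and fetal cultures 19 of the 71 rose and 10 fell (40.8%, beside 36.3% of all tested genes). Between adult and neonatal cultures 21 rose and 24 fell (63.4%, beside 63.5%), and between adult and fetal cultures 28 rose and 26 fell (76.1%, beside 70.5%). No test of a list as a whole was run. Their median log2 fold changes were 0.23, -0.11 and 0.19. Among 13 relatives of the small leucine-rich proteoglycans, 9 were in the table and only 3 were tested, Tsku beside Epyc and Optc. Tsku, which encodes the secreted signalling regulator tsukushi, was 0.61 higher on the log2 scale in neonatal than in fetal cultures (edgeR adjusted p = 0.00158). Ogn, Omd and Aspn had 0 counts in all libraries, but the annotation lists each at 2 places on chromosome 17, and reads that map to several places are left out by default in the counting program, so their levels cannot be read here.

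Among hyaluronan-binding proteoglycans and their partners, 6 of 14 genes were tested. Between fetal and neonatal cultures 4 fell (66.7%, beside 36.3% of all tested genes). All of these but Tnfaip6 averaged at most 2.25 CPM at either age. Between neonatal and adult cultures 2 rose and 1 fell (50%, beside 63.5%). Acan, the cartilage relative of versican, averaged 106 CPM in fetal and 96.3 CPM in neonatal cultures and had 2 counts in each adult library. That is at least 430-fold lower in adult than in neonatal cultures and at least 475-fold lower than in fetal cultures, against a floor of 3 counts per library (edgeR adjusted p = 2.16e-09 and 1.00e-09). Of 10 cartilage markers, Acan included, Col2a1, Matn1, Col9a1 and Hapln1 were at 0 in adult libraries, but already at 0 to 0.325 CPM in neonatal ones. Comp and Col11a2 were instead highest in adult libraries, at 4.64 to 7.15 and 4.90 to 5.35 CPM, against 0.583 to 1.63 and 2.59 to 3.89 before. Sox9 was below its neonatal level in the adult, and Matn3 and Matn4 overlapped between those ages. The whole list summed to 189 to 220 CPM in fetal, 290 to 314 in neonatal and 90.0 to 178 in adult cultures.

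Ptx3, a secreted pentraxin that takes part in assembling hyaluronan networks, was at 1613, 718 and 398 CPM in the adult libraries, against means of 25.2 and 33.7 CPM in fetal and neonatal cultures. It rose by 4.75 on the log2 scale between neonatal and adult cultures (edgeR adjusted p = 3.66e-05), and by 4.05 without adult library 1. Tnfaip6, whose product TSG-6 transfers protein chains onto hyaluronan, averaged 23.5, 9.91 and 16.7 CPM in fetal, neonatal and adult cultures. It was lower in neonatal than in fetal cultures (log2 fold change -1.24, edgeR adjusted p = 0.00657) and higher in adult than in neonatal ones (0.74, edgeR adjusted p = 0.0341), a call that did not hold when any 1 neonatal library, fetal library 3 or adult library 1 was left out.

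For hyaluronan precursors, receptors and breakdown, 14 genes were tested. Between fetal and neonatal cultures 5 rose and 4 fell (64.3%, beside 36.3% of all tested genes). Between neonatal and adult cultures 6 rose and 3 fell (64.3%, beside 63.5%). Ugdh, which makes the UDP-glucuronate used by the synthases, averaged 165, 197 and 380 CPM from fetal to adult cultures and was 0.94 higher on the log2 scale in adult than in neonatal cultures (edgeR adjusted p = 0.00149). The paralogs Gfpt1 and Gfpt2 catalyse the entry step towards the hexosamine precursor. Gfpt2 rose from 25.8 to 59.8 and 165 CPM (adult to fetal log2 fold change 2.67, edgeR adjusted p = 4.52e-06), whereas Gfpt1 fell from 122 to 84.9 and 52.5 CPM (log2 fold change -1.22, edgeR adjusted p = 8.21e-06). Hmmr, a hyaluronan-binding protein also known for its role at the mitotic spindle, fell from 73.6 to 49.1 and 23.1 CPM (log2 fold change -1.67, edgeR adjusted p = 5.05e-06).

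The heparan sulfate and other proteoglycans counted 17 tested genes. Between fetal and neonatal cultures 3 rose and none fell (17.6%, beside 36.3% of all tested genes). Between neonatal and adult cultures 6 rose and 8 fell (82.4%, beside 63.5%). Among the syndecans, which are membrane proteoglycans, Sdc2 averaged 349, 708 and 255 CPM in fetal, neonatal and adult cultures, Sdc3 202, 390 and 635 CPM, and Sdc4 180, 124 and 440 CPM. Sdc2 and Sdc3 rose between fetal and neonatal cultures (log2 fold changes 1.02 and 0.95, edgeR adjusted p = 0.00430 and 0.000456). Sdc4 rose between neonatal and adult cultures (1.83, edgeR adjusted p = 0.000132), as did Tgfbr3, the TGF-beta co-receptor betaglycan, from 12.1 to 44.7 CPM (1.89, edgeR adjusted p = 0.00221). Cspg4, a chondroitin sulfate proteoglycan that also stands in the mural marker list, fell from 103 to 19.2 CPM (-2.42, edgeR adjusted p = 2.88e-05), and the glypican Gpc1 from 188 to 59.8 CPM (-1.66, edgeR adjusted p = 0.000129).

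For the synthesis of chondroitin, dermatan and keratan sulfate, 26 genes were tested. Between fetal and neonatal cultures 9 rose and 2 fell (42.3%, beside 36.3% of all tested genes). Between neonatal and adult cultures 5 rose and 10 fell (57.7%, beside 63.5%). Among those that reached a mean of 10 CPM, the 2 that rose most in the adult were sulfotransferases. Chst1, which sulfates keratan chains, averaged 2.64, 5.16 and 49.9 CPM from fetal to adult cultures (adult to neonatal log2 fold change 3.27, edgeR adjusted p = 4.82e-07). Chst12, which sulfates chondroitin and dermatan, averaged 8.40, 9.57 and 68.7 CPM (2.84, edgeR adjusted p = 6.04e-08). Ust, another sulfotransferase of these chains, fell from 18.5 to 6.19 CPM between neonatal and adult cultures (-1.58, edgeR adjusted p = 0.000279), and the sulfate transporter gene Slc26a2 from 19.8 to 10.0 CPM (-0.98, edgeR adjusted p = 0.000337). Between neonatal and fetal cultures the chain-starting Csgalnact1 (0.85) and the polymerising factor Chpf (0.72) were higher and the sulfotransferase gene Chst15 (-0.78) and the nucleotide sugar transporter Slc35d1 (-0.33) lower, with edgeR adjusted p from 0.0202 to 0.0466. Each of these calls was lost without at least 2 of the neonatal libraries, left out in turn. Those of Chst15 and Slc35d1 were also lost without fetal library 2, and that of Slc35d1 without fetal library 1 or adult library 2 or 3.

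Of the genes for proteases that cut versican and aggrecan, 5 were tested. None passed the threshold between neonatal and fetal cultures, where 36.3% of all tested genes did. Adamts4 rose from 7.95 to 16.5 CPM between neonatal and adult cultures (log2 fold change 1.04, edgeR adjusted p = 0.00838) and Adamts9 fell from 69.7 to 34.8 CPM (edgeR adjusted p = 0.00788). Adamts1 averaged 419, 247 and 171 CPM from fetal to adult cultures and was lower in adult than in fetal cultures (log2 fold change -1.30, edgeR adjusted p = 0.00401).

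**Figure D5:**
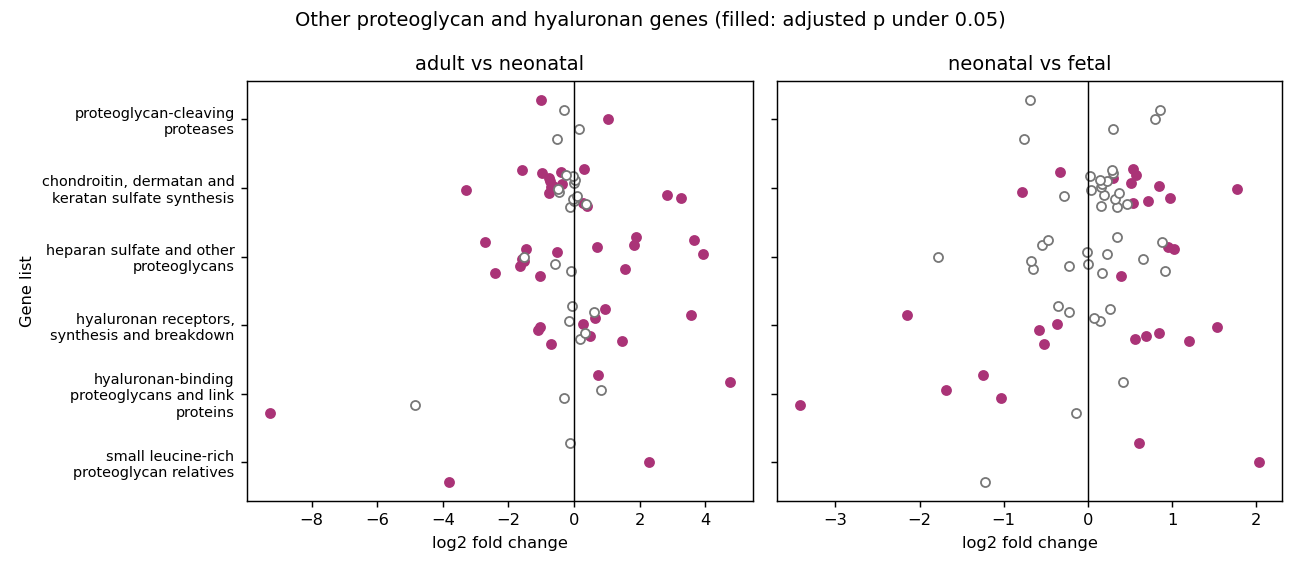
Log2 fold changes of the other tested proteoglycan and hyaluronan genes by list, between adult and neonatal and between neonatal and fetal cultures (separate log2 axes); each point is 1 gene, filled points passed an edgeR adjusted p of 0.05, and the point far to the left is the fitted value of Acan. Every list holds called genes on both sides of 0 between adult and neonatal cultures.

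For each member, the genes with the most similar profile were found among 8323 genes with a mean of at least 10 CPM, by the root mean square difference of centred log2 CPM over the 9 libraries. Nearest to Dcn were Mgp, which encodes a matrix protein that limits calcification (0.313), and Igf1, a growth factor gene (0.353). Nearest to Prelp were the complement gene C1r (0.168) and Enpp3 (0.197), to Has1 Cebpd (0.249) and Socs3 (0.285), and to Cd44 Mitf (0.112) and Atp6v1b2 (0.134). Vcan was nearest to the metalloprotease gene Adam19 (0.135) and to Cald1 (0.185), Lum to Nrg1 (0.235) and Trpc6 (0.291), and Has2 to LOC688459 (0.184) and Epha7 (0.239). Bgn was nearest to Slc27a1 (0.091) and Itm2b (0.106), and Fmod to Esm1 (0.371) and Igfbp4 (0.381). Among the members themselves the closest profiles were those of Dcn and Has1 (0.549), Vcan and Has2 (0.558), and Lum and Vcan (0.624).

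In the adult libraries, the order of Dcn, Prelp, Fmod and Has1 levels, highest in library 1, was also that of Pdgfra and Tcf21, taken from the 10 fibroblast markers after their values were seen. Pdgfra was at 669, 384 and 245 CPM and Tcf21 at 226, 113 and 108 CPM in adult libraries 1 to 3. The sum of the fibroblast list did not follow that order, at 40794, 48045 and 51978 CPM. Most of it came from Col1a1, Col3a1 and Fn1, at 11890, 8156 and 13541.5 CPM in adult library 1. Of the other fibroblast markers, Ddr2, S100a4 and Col1a2 were also highest in library 1, and Thy1 and Vim, as well as Col1a1, Col3a1 and Fn1, were lowest there. Csf1r was likewise lowest in library 1, at 377, 534 and 620 CPM. In fetal library 3, Bgn, Dcn and Lum were lowest and Vcan, Fmod, Has2 and Cd44 highest among fetal libraries. There the 9 lung epithelial markers summed to 229 CPM, against 3.46 and 4.14 in fetal libraries 1 and 2. Cdh1, Cldn18, Epcam and Nkx2-1 were at 113, 58.5, 47.0 and 9.83 CPM there, whereas Sftpb, Sftpa1 and Napsa were at 0. The 7 epicardial or mesothelial markers in the table summed to 246 CPM against 102 and 101, of which the keratin gene Krt8 made up 144 CPM against 10.2 and 11.3. Macrophage markers summed to 69.3 CPM in fetal library 3, against 14.9 and 14.7. Mural markers summed to 1058 CPM there, against 1897 and 1920, and the cardiomyocyte and endothelial sums were also lowest there. The sum of the cartilage list was lowest in that library, at 189 against 220.1 and 213 CPM, but its genes were divided. Acan and Sox9, which made up most of the sum, were lowest there, as were Comp and Col11a2. Col2a1 was instead highest there, at 38.3 against 5.29 and 5.82 CPM. Hapln1 was too, at 4.94 against 0.918 and 0.882 CPM, and so was Col9a1. Matn3 and Matn4 lay between the other fetal libraries. The part of these differences in the members' spread was not tested.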

How the data were processed

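RNA was measured in 9 libraries, 3 per age, grouped by the labels. The deposited raw counts per gene were made by the authors with featureCounts 1.6.3 on the rn6 build, per the file headers, which name only the annotation and output options; strand was by default not used and reads mapped to several places were left out. Trimmomatic 0.39 and STAR 2.5.2b are listed in the submitters' processing notes. A second deposited table of normalized signal held 12786 genes, counts divided by 1 size factor per library. It entered no test. Exon lengths came from the count table, per the file headers.

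Totals were 13392825 to 22850491 counts, and 3163 genes had none. Genes were kept by filterByExpr, libraries scaled by TMM, and edgeR 4.0.16 (R 4.3.3; robust quasi-likelihood, all 9 libraries, age only) fitted to the whole table, with Benjamini-Hochberg adjustment over 11337 genes and a threshold of 0.05. Log2 CPM used a prior count of 2. Shares and ratios were compared by exact permutation tests. Folds against an age at or below 3 counts per library are bounds, which cover counting error only. The fit was tested on simulated data.

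All members are named; from each other list and pair of ages, up to 2 genes per direction with the largest called change whose ages did not overlap and whose higher age averaged at least 10 CPM; and the 2 nearest profiles per member. A gene that met this rule is not reported here. Epyc, Optc, Kera and Has3 were added as neighbours or relatives, and marker genes after their values were seen. The members and lists were chosen with earlier results of these data known. Alternatives were DESeq2 1.42.0, its size factors, library size alone, no filter, only the ages compared, a replicate block, a fold threshold, other denominators and each library left out. RefSeq promoters carry GRCr8 coordinates, a different build from the counts.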

Additional observations from a re-analysis of the deposited data

How the results depend on the processing

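Over the alternatives, 476 log2 fold changes of members kept their direction and call, 34 lost and 15 gained a call, and 6 changed sign, all of differences that had not been called. When a library was left out, the neonatal to fetal log2 difference ran from -0.17 (without fetal library 3) to 0.50 for Dcn and from -0.32 (the same) to 0.32 for Lum, the adult to fetal one from -0.21 (without adult library 1) to 1.28 for Fmod, and the difference from the midpoint from -0.0175 (without adult library 3) to 0.31 for Prelp. With library size alone the Lum difference was -0.0641 and the Prelp one -0.0195. The 1 member lower in neonatal than in fetal cultures, Has2, became 0 members with a log2 threshold of 1, and 0 to 2 when a library was left out. Against the midpoint, the 3 higher members became 1 to 4 and the 2 lower ones 1 to 3 when a library was left out; the lower ones were 4 with DESeq2 and 1 with no filter. The 10 other matrix genes lower in neonatal than in fetal cultures were 17 with library size alone, and 5 to 15 when a library was left out. With library size alone the median log2 fold change of all genes was -0.176 between neonatal and fetal cultures, beside -0.0053, and -0.123 between adult and fetal cultures, beside -0.0127. It also moved the share of calls that were higher from 50.4% to 29% between neonatal and fetal cultures.

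The summed share of counts differed by 0.745 points between neonatal and fetal cultures without the 10 most abundant other genes and by 0.707 points with TMM-scaled CPM, beside 0.599; between adult and neonatal cultures it was 0.0799 points without those genes, beside 0.177, and 0.112 to 0.226 points when a library was left out. The labels link same-numbered libraries of different ages by nothing but the number. Their deviations from the mean of their age correlated at -0.0649 to 0.0521. With 3 libraries per age, such values cannot tell whether libraries were prepared together. With the replicate block, 0 members were lower in neonatal than in fetal cultures (Has2 log2 fold change -0.81, edgeR adjusted p = 0.054) and the Fmod call between adult and neonatal cultures was lost (1.61, edgeR adjusted p = 0.0574). Against the midpoint, the block ended the Lum call (1.09, edgeR adjusted p = 0.055) and Has1 passed the threshold (-0.93, edgeR adjusted p = 0.046). The calls of all genes were 3713, 6985 and 7801 with the block, beside 4114, 7197 and 7987. Leaving out neonatal library 1, 2 or 3 left 2607, 2476 and 2575 calls between neonatal and fetal cultures. Depth limited Has1, Optc and Has3, which had at most 43 counts in any fetal or neonatal library.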
